A study of Rattus norvegicus with 15 samples.

Results

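The comparison described here sets the pheochromocytomas (PCC) of MENX rats against the normal adrenal medulla of wildtype (WT) rats. Its members are all genes in the deposited table of this pair of groups, 7683 of the 8621 genes in the tables of all pairs, measured by RNA-seq in 10 of the 15 samples of the series. The 5 WT samples came from wildtype rats and the 5 PCC samples from MENX rats, with the strain given as Sprague-Dawely and the age as 7 to 9.5 months in both groups. MENX rats are of Sprague Dawley origin and carry a frameshift mutation of *Cdkn1b*, which encodes the cell cycle inhibitor p27. All PCC samples and no WT samples came from MENX rats, so genotype and tumour cannot be told apart in this design. The tissue was macrodissected medulla. The paper counts both PCCs and advanced PCCs among the PCC samples, and the labels do not divide these samples into early and advanced tumours. All 7683 genes had already been called by the authors on these same samples, so a count of calls describes the listed genes and is no independent evidence of a difference.

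The adrenal medulla consists mainly of chromaffin cells, neural crest derivatives that make catecholamines, store them in dense-core vesicles and release them on nerve input. It lies inside the steroid-producing cortex, with sustentacular cells, Schwann cells, vessels and connective tissue around the chromaffin cells, so dissected medulla can carry RNA of all of these. Pheochromocytomas are tumours of the chromaffin cells.

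For WT replicates 1 to 5 the reads counted on genes were 20972536, 20330838, 19749571, 17723131 and 18995198, and for the PCC replicates 23831269, 17340695, 18753812, 18595898 and 21140261. The listed genes held 60.3, 60.9, 60.4, 61.999 and 60.5% of them in WT and 51.04, 50.9, 53.6, 53.3 and 54.04% in PCC. The depth of the groups overlapped, while the share of listed genes was higher in every WT sample than in any PCC sample. Expression is given as counts scaled to a common library size (CPM) with TMM factors, and a gene counts as called where the quasi-likelihood test of edgeR gave an adjusted *p* below 0.05, and SE stands for standard error. Values of single samples are listed in the order of replicates 1 to 5.

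Of the 7001 genes with enough counts to be tested, 3303 (47.2%) were called higher and 2644 (37.8%) lower in PCC, together 84.9% of the genes tested, and 682 genes did not pass the filter on low counts. The groups did not overlap in 4641 (66.3%) of the genes tested. The median log2 fold change of all genes tested was 0.45. The scale of the samples sets where 0 lies: the median of all log2 fold changes shifted by 0.49 when each sample was scaled to its listed counts (listed totals), by 0.28 with the recovered library totals and by -0.11 in DESeq2. Higher genes made up 55.5% of the calls with TMM, 68.9% with the library totals (3520 higher, 1592 lower) and 76.3% with the listed totals (3545 higher, 1100 lower). They made up 51.1% with the authors' size factors (3048 higher, 2913 lower) and 48.4% in DESeq2 (3227 higher, 3440 lower), where lower calls prevailed. *Cdkn1b* (ENSRNOG00000007249), the mutated gene, had 75.998, 64.7, 52.4, 53.3 and 40.9 CPM in WT and 169, 154, 126, 166 and 107 CPM in PCC. Its transcript was higher in every PCC sample than in any WT sample, with a log2 fold change of 1.33 (SE 0.20, adjusted *p* = 0.000646), and 0.94 (adjusted *p* = 0.0579) with the cortex level described below as a covariate.

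Markers of the adrenal cortex, the tissue that dissection was meant to remove, were counted in all 10 samples, and their sum was lower in PCC. Of 20 cortex markers 15 are listed, none of them at 0 in any sample, and their summed level was 35129, 34609, 52406, 67645 and 73390.4 CPM in WT and 17138, 4161, 14345, 1517 and 20494 CPM in PCC. Every WT sample lay above every PCC sample, WT replicates 4 and 5 were highest, and PCC replicates 4 and 2 were lowest. The means were 52636 ± 17941 CPM (SD, n = 5) in WT and 11531 ± 8281 CPM (SD, n = 5) in PCC, a ratio of 4.56. No test of this sum is given, as the authors had called its genes on these samples. As a share of all reads on genes, the markers held 3.304, 3.25, 5.03, 6.01 and 5.93% in WT and 1.61, 0.484, 1.69, 0.173 and 2.28% in PCC. In bulk tissue, fewer cells of a type and less RNA per cell cannot be told apart.

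The marker with the highest mean in both groups was *Cyp21a1*, the steroid 21-hydroxylase, with 9281, 8654, 12802, 16039 and 17285 CPM in WT and 4971, 959, 3362, 297 and 5107 CPM in PCC. Its groups did not overlap, and its log2 fold change of -2.12 (SE 0.67, adjusted *p* = 0.03002) was not called under other settings, at -1.66 with the listed totals, -2.12 without WT replicate 3, -2.03 without WT replicate 4, -1.90 without PCC replicate 2 and -2.18 without PCC replicate 3. *Star*, which brings cholesterol into mitochondria for steroid synthesis, had 4957, 5604, 9947, 11902 and 11527 CPM in WT and 2367, 649, 2125, 148 and 2299 CPM in PCC. *Star* fell, with a log2 fold change of -2.53 (SE 0.66, adjusted *p* = 0.0121). *Fdxr*, the ferredoxin reductase that passes electrons to mitochondrial P450 enzymes, had the largest fall of the list, at -2.75 (SE 0.57, adjusted *p* = 0.00386), and *Nr5a1*, the transcription factor of steroidogenic cells, fell, with a log2 fold change of -2.71. *Mrap*, the accessory protein of the ACTH receptor, and *Akr1b7*, an aldo-keto reductase of the cortex, had log2 fold changes of -2.61 and -2.63, each with no overlap between the groups. *Hsd3b1*, the 3-beta-hydroxysteroid dehydrogenase, had a log2 fold change of -2.40 (SE 0.73, adjusted *p* = 0.0266) and was not called under other settings, at -1.91 with the listed totals, -2.53 with a replicate block, -2.12 without WT replicate 4, -2.16 without WT replicate 5, -2.19 without PCC replicate 2 and -2.47 without PCC replicate 3.

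*Cyp11b2*, the aldosterone synthase of the outer cortex, had 368, 432, 1243, 1553 and 4684 CPM in WT and 659.5, 159.9, 755, 77.8 and 993 CPM in PCC. The groups overlapped, WT replicate 5 stood highest, and the log2 fold change of -1.65 (SE 0.81, adjusted *p* = 0.176) was not called, while it was at -1.78 in DESeq2. *Cyp11a1*, which starts steroid synthesis, had 4509.7, 4782, 8905, 9126 and 17775 CPM in WT and 3612, 843, 3185, 296 and 4649 CPM in PCC, and WT replicate 1 lay below PCC replicate 5. Its log2 fold change of -1.84 (SE 0.69, adjusted *p* = 0.0626) was not called, while it was under other settings, at -1.97 in DESeq2, -1.84 adjusted over tested genes alone and -2.18 without PCC replicate 5. In all, 9 of the 15 cortex markers were called lower and none higher (1 higher and 8 lower with the library totals, 1 and 6 with the listed totals, and 1 and 13 in DESeq2, with 1 higher also with a replicate block, adjusted over the tested genes alone and without WT replicate 5), and their median was -2.18 beside 0.45 over all genes tested. *Fdx1*, the ferredoxin of mitochondrial P450 enzymes, and *Inha*, the inhibin alpha subunit, both named after their values were seen, complete the called markers, with log2 fold changes of -2.43 and -1.30, and *Inha*, with overlap, was not called at -1.03 with the library totals, -0.82 with the listed totals and -1.20 with a replicate block. The markers not called also include *Scarb1*, *Soat1*, *Nr0b1* and *Kcnk9*, named after their values were seen, with log2 fold changes of -1.88, -1.71, -2.18 and 1.28. They were called under other settings, *Scarb1* at -1.94 with the authors' size factors, -2.01 in DESeq2, -1.88 with no filter, -1.88 adjusted over tested genes alone, -2.07 without WT replicate 1, -1.59 without PCC replicate 4 and -1.89 with TMM after the filter, and *Soat1* at -1.84 in DESeq2, -1.71 adjusted over tested genes alone and -1.80 with a replicate block. For *Nr0b1* these were -2.23 with the authors' size factors, -2.18 with no filter, -2.18 adjusted over tested genes alone, -3.02 with a replicate block, -3.62 without PCC replicate 5 and -2.19 with TMM after the filter, and for *Kcnk9* 1.65 with the library totals, 1.85 with the listed totals, 1.17 in DESeq2, 1.28 adjusted over tested genes alone, 1.53 with a replicate block and 1.93 without WT replicate 5. Of the list, *Akr1b7*, *Inha* and *Kcnk9* are also members of other lists, and *Hsd3b2*, *Cyp11b1*, *Cyp11b3*, *Mc2r* and *Agtr1b* are not among the listed genes. None of the 9 genes of a list for adrenal capsule and cortical progenitors is listed.

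**Figure D1:**
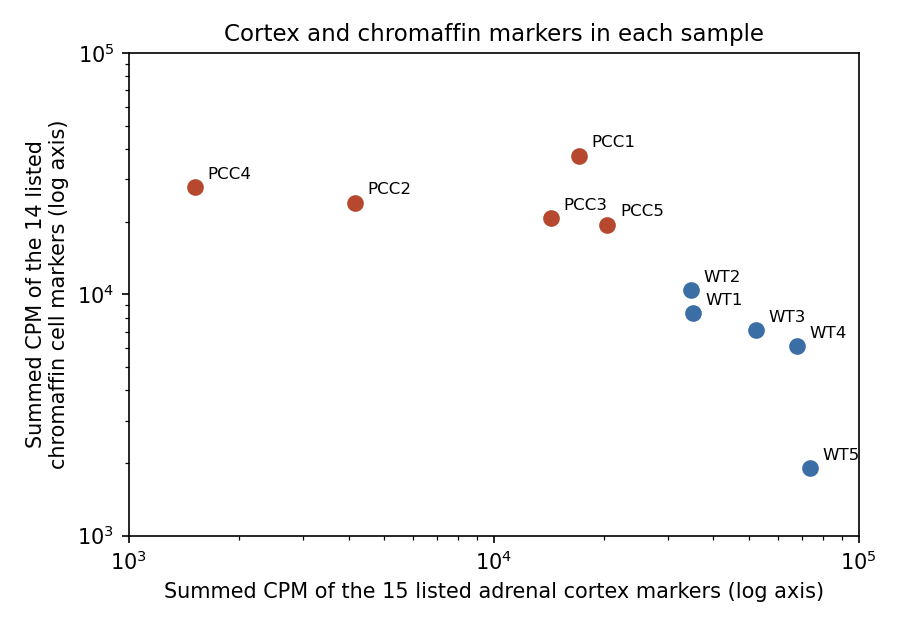
Summed CPM of the 15 listed adrenal cortex markers (horizontal, log axis) against that of the 14 listed chromaffin cell markers (vertical, log axis), 1 point per sample, WT in blue and PCC in red. The WT samples lie between 34609 and 73390.4 CPM of cortex markers and the PCC samples between 1517 and 20494, and WT replicate 5 has the lowest sum of chromaffin markers, 1908 CPM.

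The share of the fall held by the listed cortex markers was measured over the called genes and over all listed genes with a lower mean. It leaves out cortex RNA of any gene that is not among these markers. Summed over the 2644 genes called lower, mean CPM fell by 255559 from WT to PCC, of which the 9 called cortex markers made up 30019 CPM, or 11.7%. Over all 3772 listed genes with a lower mean in PCC the fall was 341931 CPM, with 12.04% from cortex markers and 16.3% from genes of the mitochondrial genome. The fall is spread over many genes: the 10 largest contributions make up 20.5% of that over called genes, and 123 genes are needed for 50% of it. Beside the cortex list, large contributions came from *Cyp1b1*, a P450 enzyme, *Akr1b8*, an aldo-keto reductase, and *LOC100911154*, all named after their values were seen, with mean falls of 9077, 3311 and 6474 CPM. *Cyp1b1* had 6910.1, 6749, 10438, 15295 and 12222 CPM in WT and 2448, 392, 1434, 107 and 1847 CPM in PCC, which puts WT replicates 4 and 5 highest and PCC replicates 4 and 2 lowest, the same ends as the cortex sum. By size of change, 514 genes (19.4% of those called lower) fell further than the median cortex marker, and 232 fell further than *Fdxr*.

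When the cortex level, the mean log2 CPM of 8 lead cortex genes, was placed beside the group in the same edgeR fit, the group term was called in 1155 genes (16.5% of those tested), 697 higher and 458 lower. The cortex level was 10.47, 10.55, 11.33, 11.66 and 11.86 in WT and 9.53, 7.53, 9.36, 5.98 and 9.91 in PCC. Every WT level lay above every PCC level, so group and cortex level are partly the same measure and cannot be told apart fully. The variance inflation of the group term was 2.45 and the median standard error grew 1.43-fold, so the calls lost are no measure of cortex RNA. The sign of the fitted change stayed the same in 3290 of the 3303 higher and 2594 of the 2644 lower genes, while 693 (20.98%) and 452 (17.1%) kept their call. The cortex term itself was called in 328 genes (4.69% of those tested), with a positive slope in 289 and a negative one in 39. Of the genes called lower, 251 (9.49%) had a positive cortex term, and they held 38.3% of the summed fall, against 29.2% for the 452 lower genes that kept their call. Of the genes with a positive term 12 are cortex markers, among them the lead genes that define the level. Over all lower genes, called for the term or not, the fitted cortex slope was positive in 76.9%, beside 45.02% of genes tested and 14.5% of higher genes.

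*Hspd1*, the mitochondrial chaperonin, named after its values were seen, shows a fall shared with the cortex level: its cortex slope was 0.68 (adjusted *p* = 0.00136), and its log2 fold change went from -2.03 to -0.37 (adjusted *p* = 0.634) with the covariate. *Crem*, a cAMP-responsive transcription factor, also named after its values were seen, had 1923, 2099.5, 1197, 1310.5 and 539 CPM in WT and 78.2, 44.2, 50.3, 59.2 and 149 CPM in PCC. Its log2 fold changes without and with the covariate were -4.22 and -3.96 (adjusted *p* = 0.00792). *Dgat1*, which makes triglycerides, had 2395, 3365, 815, 1173 and 144 CPM in WT and 30.2, 35.6, 29.8, 46.8 and 79.4 CPM in PCC, with no overlap between the groups. *Nfil3*, a repressor of the clock output, had 1524, 2155, 671, 978 and 284 CPM in WT and 9.602, 5.75, 6.15, 14.1 and 90.4 CPM in PCC. With the covariate *Dgat1* and *Nfil3* had log2 fold changes of -5.48 (adjusted *p* = 0.0143) and -4.89 (adjusted *p* = 0.0395).

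**Figure D2:**
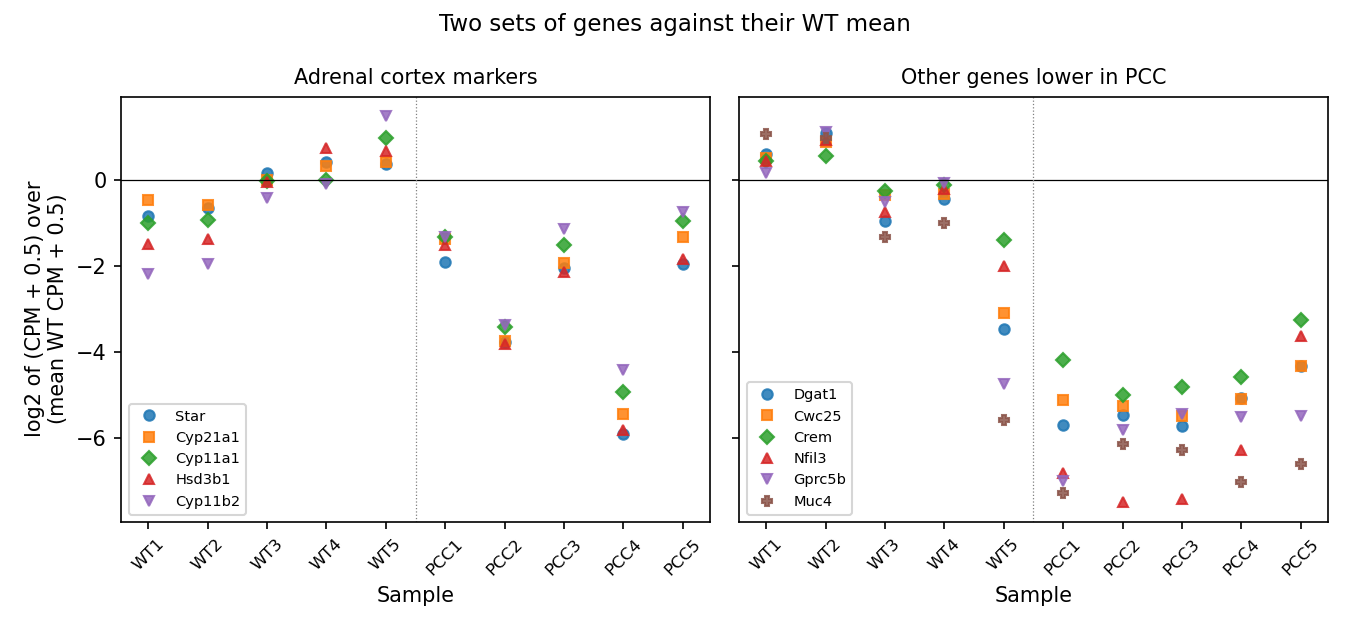
Each point is a sample's log2 of CPM plus 0.5 over the WT mean plus 0.5, for 5 lead cortex markers (left) and for 6 other genes lower in PCC (right, of which Crem was named after its values were seen). WT replicate 5 is the lowest WT sample for each of the 6 genes on the right, as it was for the cortex markers *Mrap*, *Fdx1* and *Inha*, not shown.

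WT replicate 5 and PCC replicates 4 and 5 stood at the ends of their groups in many genes. WT replicate 5, with the highest cortex and the lowest chromaffin sum, was the lowest WT sample in 45.8% of the higher and 34.7% of the lower genes, beside 39.5% of all genes tested, and the highest WT sample in 28.9% of the lower genes, beside 27.6%. PCC replicate 4, with the lowest cortex sum, was the lowest PCC sample in 47.6% of the lower genes (27.2% of all tested) and the highest in 42.8% of the higher genes (25.3%). PCC replicate 5, with the highest cortex sum of the PCC group, was the highest PCC sample in 48.7% of the lower genes (23.2% of all tested) and the lowest in 43.4% of the higher genes (23.4%). The part of the cortex markers in the gene groups that follow was not tested, and for most groups the count of calls kept beside the cortex level is given. The counts of calls in each group stand beside 47.2% higher and 37.8% lower of all genes tested.

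The listed chromaffin cell markers were higher in PCC, while *Pnmt*, *Chga*, *Chgb*, *Gata2*, *Gata3*, *Hand1*, *Insm1*, *Slc6a2* and *Gch1* are not among the listed genes. All 14 listed markers of 23 were called higher, their median log2 fold change was 2.08, and their summed level was 8341, 10382, 7103, 6091 and 1908 CPM in WT and 37575, 23946, 20689, 27848 and 19429 CPM in PCC. The groups did not overlap, WT replicate 5 was lowest, PCC replicate 1 was highest, and no listed marker was at 0. *Th*, the rate-limiting enzyme of catecholamine synthesis and the gene of the list with the highest mean in both groups, had 2794, 3577, 2249, 2154 and 700.3 CPM in WT and 14469, 7295, 6645, 12246 and 5565 CPM in PCC, a log2 fold change of 2.01 (SE 0.46, adjusted *p* = 0.00622). *Ddc*, which makes dopamine, rose from 192 ± 104 to 1609.6 ± 476 CPM (SD, n = 5 each), with a log2 fold change of 3.07 (SE 0.47, adjusted *p* = 0.000778), and *Dbh*, which makes noradrenaline, had 1.48 (SE 0.41, adjusted *p* = 0.0177). *Slc18a2*, the vesicular monoamine transporter 2, had the largest rise of the list, with 18.7, 30.5, 17.9, 20.8 and 8.603 CPM in WT and 275, 184, 323, 493 and 134 CPM in PCC. Every PCC sample was above every WT sample for it, and 3 of the 14 calls were kept beside the cortex level. Of the 14 markers 7 are also members of other lists.

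Genes of prohormone processing and regulated exocytosis moved the same way, with 27 higher and 1 lower of 29 tested (median log2 fold change 1.82), and 9 of the higher and 0 of the lower calls were kept beside the cortex level. *Syt1*, the calcium sensor of vesicle fusion, had 73.8, 97.1, 61.7, 60.1 and 12.5 CPM in WT and 676, 672, 551, 786 and 324 CPM in PCC. All PCC samples were above all WT samples, with a log2 fold change of 3.30 (SE 0.47, adjusted *p* = 0.000512). *Snap25*, a SNARE protein of the fusion complex, had a log2 fold change of 2.44 (SE 0.46, adjusted *p* = 0.00216), and *Doc2a*, a vesicle calcium sensor, was the call in the other direction, at -1.64 (SE 0.41, adjusted *p* = 0.00932), though -1.16 (adjusted *p* = 0.0579) with the listed totals. Among peptide precursors, 15 of 58 are listed, with 3 higher and 2 lower of 10 tested (median log2 fold change 1.61), or 6 higher and 2 lower with the listed totals and 5 higher without PCC replicate 5. *Tac3*, the neurokinin B precursor, had 0.203, 0.575, 0, 3.999 and 0.196 CPM in WT and 521, 182, 442, 802 and 157 CPM in PCC. *Gal*, the galanin precursor, rose with overlap between the groups (1.32, 1.52, 2.11, 2.16 and 7.36 CPM in WT and 53.95, 5.601, 23.1, 9.13 and 31.9 CPM in PCC), while *Nmu*, the neuromedin U precursor, and *Calca*, the calcitonin gene named after its values were seen, fell with log2 fold changes of -2.34 (SE 0.46, adjusted *p* = 0.00271) and -5.86 (SE 1.19, adjusted *p* = 0.00328), the latter with overlap.

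Genes of electrical excitability were mostly higher in PCC, with exceptions in each family. Voltage-gated sodium and calcium channels had 18 higher and 1 lower of 22 tested (median log2 fold change 1.72). No lower call was left with the listed totals, while there were 4 in DESeq2 and 2 with a replicate block. There were also 2 without WT replicate 5 or PCC replicate 1, 4 or 5. Potassium channels had 24 higher and 8 lower of 36 tested (median log2 fold change 1.70), or 28 higher and 5 lower with the listed totals. *Kcnq5*, a channel of the M current, had 1.77, 1.88, 1.79, 1.84 and 0.717 CPM in WT and 25.99, 42.6, 38.6, 21.7 and 38.7 CPM in PCC. The groups were apart, and the log2 fold change was 4.38 (SE 0.32, adjusted *p* = 5.75e-05). *Cacna2d4*, an auxiliary calcium channel subunit, rose with 6.04 (SE 0.94, adjusted *p* = 0.0008196), and *Kcnma1*, the BK channel, by 1.40. *Kcnk5*, an acid-sensitive leak channel, fell from 76.4 ± 13.8 to 8.36 ± 8.47 CPM (SD, n = 5 each), with a log2 fold change of -3.19 (SE 0.56, adjusted *p* = 0.001496). *Cacna1h*, a T-type calcium channel, was not called at -1.77 (SE 0.64, adjusted *p* = 0.0569), while it was at -1.89 in DESeq2, -1.77 adjusted over tested genes alone, -2.28 with a replicate block and -2.48 without PCC replicate 5. With the cortex level as a covariate its log2 fold change was -0.01, and its cortex slope was 0.82 (adjusted *p* = 0.0266). Its WT replicate 5 had 537 CPM beside 212 to 245 CPM in the other WT samples. In the first family 5 of the higher and 0 of the lower calls were kept beside the cortex level, and in the second 7 of the higher and 2 of the lower calls.

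Ligand-gated channels had 13 higher and 5 lower of 22 tested (median log2 fold change 1.24) and G protein-coupled receptors 35 higher and 25 lower of 73 tested (median log2 fold change 1.09), beside 47.2% higher and 37.8% lower of all genes tested. With the listed totals the receptors had 38 higher and 14 lower, and in DESeq2 35 and 34. *Adora2a*, an adenosine receptor, had 5.02, 3.92, 3.43, 21.6 and 3.06 CPM in WT and 474, 455, 695, 1867 and 273 CPM in PCC. The groups were apart at a log2 fold change of 6.67 (SE 0.82, adjusted *p* = 0.000262). *Gpr139*, an orphan receptor, had reads in WT replicate 4 alone of the WT samples (1.02 CPM) and 16.6, 25.6, 33.9, 66.9 and 8.92 CPM in PCC. *Gprc5b*, an orphan class C receptor, fell, with 336, 653, 212, 289.99 and 10.8 CPM in WT and 1.88, 4.86, 6.42, 6.16 and 6.29 CPM in PCC. WT replicate 5 was by far the lowest WT sample but still above every PCC sample. *Grin2c*, an NMDA receptor subunit, *Chrnb4*, a ganglionic nicotinic subunit, and *Chrna7*, the alpha7 nicotinic subunit named after its values were seen, rose by log2 fold changes of 3.41, 1.15 (with overlap) and 2.02. *P2rx5*, an ATP-gated channel, and *Gria3*, an AMPA receptor subunit named after its values were seen, fell, with log2 fold changes of -2.78 and -2.75. The channels kept 3 of the higher and 0 of the lower calls beside the cortex level and the receptors 16 of the higher and 8 of the lower calls.

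Neural adhesion molecules and synapse organizers had 23 higher and 1 lower of 25 tested (median log2 fold change 2.26), with no lower call with the listed totals and 2 without WT replicate 4 or any PCC replicate, and 10 of the higher and 0 of the lower calls kept beside the cortex level. *L1cam*, an axonal adhesion molecule, had 12.1, 26.99, 12.5, 14.1 and 5.15 CPM in WT and 253, 353, 242, 177 and 201 CPM in PCC. The groups were far apart, with a log2 fold change of 4.11 (SE 0.40, adjusted *p* = 9.66e-05). *Ncam1*, a neural adhesion molecule, had a log2 fold change of 1.64. *Cntnap5b*, a contactin-associated protein, had 3 or fewer counts in each WT sample, and its pooled ratio of PCC to WT was 339.8, with a 95% exact counting interval of 93.8 to 2811 that covers counting error only. Cadherins and protocadherins had 35 higher and 5 lower of 45 tested (median log2 fold change 1.97), with *Cdh22* at 4.60 (SE 0.37, adjusted *p* = 7.39e-05) and *Cdh17* at -2.99 (SE 0.50, adjusted *p* = 0.00112) as the largest rise and fall. *Cdh2*, N-cadherin, rose by 0.77 (SE 0.18, adjusted *p* = 0.00652). The cadherins kept 12 of the higher and 0 of the lower calls beside the cortex level.

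The neuronal cytoskeleton list had 20 higher and 2 lower of 23 tested (median log2 fold change 1.93), or 20 higher and 1 lower with the listed totals, and kept 6 of the higher and 0 of the lower calls beside the cortex level. *Stmn1*, a tubulin-binding protein of growing cells, had 37.4, 38.7, 26.2, 22.98 and 18.7 CPM in WT and 284, 439.6, 281, 437 and 198 CPM in PCC. Every PCC sample was several-fold above the WT samples, with a log2 fold change of 3.51 (SE 0.30, adjusted *p* = 7.87e-05). *Gap43*, a growth cone protein, and *Prph*, an intermediate filament of peripheral neurons, rose by 2.82 and 2.62, while *Nefh*, the heavy neurofilament, fell, with -1.50 (SE 0.36, adjusted *p* = 0.00764). With the cortex level as a covariate *Nefh* had -0.32 (adjusted *p* = 0.836), and its cortex slope was 0.48 (adjusted *p* = 0.010997). *Tubb3*, a neuronal tubulin, had 127 ± 73.7 CPM in WT and 66.5 ± 17.1 CPM in PCC (SD, n = 5 each) and was not called (adjusted *p* = 0.115), while it was at -1.03 in DESeq2, -0.93 adjusted over tested genes alone and -1.18 without WT replicate 5. Axon guidance genes divided, with 14 higher and 9 lower of 29 tested (median log2 fold change 0.81), near the shares of all genes tested. *Epha8*, an ephrin receptor, rose with 5.46 (SE 0.85, adjusted *p* = 0.000794) and *Ntn5*, a netrin, fell with -3.78 (SE 0.79, adjusted *p* = 0.00401).

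Homeobox factors had 23 higher and 19 lower of 48 tested (median log2 fold change 0.78), close to the shares of all genes tested. *En1*, engrailed 1, had 0.0507, 0.105, 0, 0.571 and 0.0652 CPM in WT and 3.89, 26.2, 11.7, 37.7 and 11.8 CPM in PCC. The groups were apart, with a log2 fold change of 6.87 (SE 0.89, adjusted *p* = 0.000334). *Hoxb9*, a posterior patterning gene, went the other way, with 141, 161, 153, 152 and 76.9 CPM in WT and 7.37, 1.49, 5.02, 2.16 and 26.2 CPM in PCC. WT replicate 5 was lowest of WT, PCC replicate 5 was highest of PCC, and the log2 fold change was -4.01 (SE 0.71, adjusted *p* = 0.00157). *Dlx1*, *Dlx2* and *Hmx3*, forebrain and sensory development factors named after their values were seen, rose by log2 fold changes of 5.30, 5.07 and 6.29, and *Hhex*, a haematopoietic and endodermal factor named likewise, had -3.86. *Isl1*, a factor of sympathoadrenal cells, rose by 2.73 (SE 0.48, adjusted *p* = 0.001496). With the listed totals the family had 24 higher and 10 lower, and in DESeq2 24 and 23. Of the calls with TMM, 8 of the higher and 4 of the lower ones were kept beside the cortex level.

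Proneural and other bHLH factors had 14 higher and 7 lower of 26 tested (median log2 fold change 1.13), and 4 of the higher and 4 of the lower calls were kept beside the cortex level. *Hand2*, a sympathetic lineage factor, and *Ebf3*, a factor of neuronal differentiation, rose by 2.30 and 4.64, and *Atoh8* fell, with -3.71 (SE 0.32, adjusted *p* = 7.87e-05). Forkhead, SOX, PAX, T-box and GATA factors had 10 higher and 8 lower of 22 tested (median log2 fold change 0.92). This was near the shares of all genes tested. They had as many higher as lower calls under the authors' size factors (8 and 8) and in DESeq2 (9 and 9), and 13 higher and 2 lower with the listed totals. *Tbx4*, a T-box factor of limb and lung development, had 1.42, 3.03, 2.16, 2.54 and 0.847 CPM in WT and 80.04, 102, 139.98, 239.99 and 81.3 CPM in PCC. All PCC samples were far above WT (adjusted *p* = 5.75e-05). In this group 3 of the higher and 1 of the lower calls were kept beside the cortex level.

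Among signalling families, growth factors and their binding proteins had 14 higher and 10 lower of 27 tested (median log2 fold change 1.02). This was near the shares of all genes tested. With the library totals they had 16 and 7 and with the listed totals 16 and 6. Receptor tyrosine kinases had 8 higher and 8 lower of 19 tested (median log2 fold change -0.62), for which higher calls outnumbered lower ones with the library totals (8 and 7) and the listed totals (8 and 5) and lower ones prevailed under the authors' size factors (8 and 9) and in DESeq2 (8 and 11). Lower ones also prevailed adjusted over the tested genes alone, with a replicate block and without WT replicate 1, 3, 4 or 5 or PCC replicate 3, 4 or 5. *Ret*, the receptor of GDNF family ligands, had 5.02, 7.69, 4.17, 12.4 and 1.82 CPM in WT and 208, 137, 141, 301 and 87.6 CPM in PCC. Its groups were far apart, at a log2 fold change of 4.81 (SE 0.52, adjusted *p* = 0.000142). *Gdnf*, a ligand of that receptor system named after its values were seen, rose from 0.306 ± 0.266 to 4.95 ± 2.81 CPM (SD, n = 5 each), with 3.97 (SE 0.68, adjusted *p* = 0.00137). *Pgf*, placental growth factor, had 1.27, 1.57, 0.897, 2.35 and 0.521 CPM in WT and 36.1, 30.2, 43.04, 152 and 22.6 CPM in PCC. *Insrr*, an insulin receptor relative, had 1.43, 135, 12.03, 1.65 and 11.8 CPM in PCC, with replicate 2 far above the others, and 0.811, 0.942, 0.316, 0.889 and 0.196 CPM in WT. *Pdgfd*, a PDGF ligand, and *Ros1*, an orphan kinase, fell, with log2 fold changes of -2.64 and -4.20. Growth factors kept 4 of the higher and 1 of the lower calls beside the cortex level and the kinases 3 of the higher and 0 of the lower calls.

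Wnt pathway genes had 16 higher and 11 lower of 33 tested (median log2 fold change 0.95). This was near the shares of all genes tested, 47.2% higher and 37.8% lower. *Axin2*, a feedback target of Wnt signalling, had 24.9, 34.3, 26.1, 28.3 and 35.6 CPM in WT and 127, 109, 131, 225 and 96.5 CPM in PCC. The groups were apart, with a log2 fold change of 2.21 (SE 0.24, adjusted *p* = 0.0001396). *Wnt10a*, a ligand, had 0.101, 0.209, 0.0527, 0.127 and 0 CPM in WT and 31.4, 5.75, 32.1, 58.6 and 8.88 CPM in PCC, while *Fzd4*, a Frizzled receptor, fell, with -3.23 (SE 0.52, adjusted *p* = 0.000995). The TGF-beta and BMP pathway had 17 higher and 8 lower of 26 tested (median log2 fold change 0.94), or 17 and 5 with the library or the listed totals, with 11 higher without WT replicate 3 and 9 with the replicate number as a block. *Smad3*, a signal transducer, and *Gdf5*, a BMP-type ligand, fell, with log2 fold changes of -2.32 and -3.12, and *Fstl4*, a follistatin-like protein, rose by 3.64. Notch and hedgehog genes had 10 higher and 6 lower of 20 tested, or 50.0% and 30.0% (median log2 fold change 0.93). With the library or the listed totals they had 14 and 3. Among them were *Mfng*, a Notch glycosyltransferase, at 2.75 (SE 0.49, adjusted *p* = 0.00172) and *Hes6* at -2.38 (SE 0.38, adjusted *p* = 0.000946). Beside the cortex level, 4 of the higher and 5 of the lower calls were kept for Wnt, 3 of the higher and 1 of the lower calls for TGF-beta and BMP, and 1 of the higher and 2 of the lower calls for Notch and hedgehog.

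MAPK feedback and immediate early genes, which respond to stimuli within minutes, were mostly lower in PCC, with 5 higher and 18 lower of 28 tested (median log2 fold change -2.17), 3 higher without WT replicate 4, WT replicate 5 or PCC replicate 5, and 1 of the higher and 3 of the lower calls kept beside the cortex level. *Nr4a3*, an orphan nuclear receptor of this class, had 906, 986, 993, 380.2 and 281 CPM in WT and 10.9, 2.23, 12.8, 12.7 and 97.4 CPM in PCC. PCC replicate 5 was highest of PCC but below every WT sample, and the log2 fold change was -4.70 (SE 0.93, adjusted *p* = 0.00283). *Nr4a1*, *Nr4a2* and *Jun*, named after their values were seen, had log2 fold changes of -3.19, -4.07 and -2.32, with overlap between the groups in *Nr4a2* alone of the 3. *Spred2*, an inhibitor of the Ras and MAPK pathway, had the largest rise, at 1.63 (SE 0.25, adjusted *p* = 0.0007498). Clock genes had 4 higher and 4 lower of 10 tested (median log2 fold change 0.54), with more higher than lower calls under the library totals (5 and 4) and the listed totals (5 and 3), with no filter, with a replicate block and without WT replicate 1 or PCC replicate 1 or 5. Lower calls prevailed with a filter of 10 counts in each sample (2 and 4) and without WT replicate 5 (4 and 5). *Per1*, a period gene, had 653, 549.9, 482, 271 and 176 CPM in WT and 177, 165, 145, 169.5 and 187 CPM in PCC. PCC values were close together and overlapped WT replicate 5, with a log2 fold change of -1.34 (SE 0.32, adjusted *p* = 0.00749), and -0.88 (adjusted *p* = 0.0955) with the listed totals. *Hlf*, a clock output factor, rose by 2.69 (SE 0.49, adjusted *p* = 0.00181). Of the clock calls, 1 was kept beside the cortex level, *Nfil3* (adjusted *p* = 0.0395).

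Hypoxia-responsive genes are listed for 12 of 31, with 7 higher and 4 lower of 12 tested (median log2 fold change 1.21), or 8 higher and 1 lower with the listed totals, and 1 of the higher and 0 of the lower calls kept beside the cortex level. *Egln3*, an oxygen-sensing prolyl hydroxylase, had 0.862, 0.889, 0.791, 1.78 and 0.782 CPM in WT and 18.7, 8.48, 7.78, 42.1 and 2.55 CPM in PCC, a log2 fold change of 3.96 (SE 0.69, adjusted *p* = 0.00144), or 2.37 (adjusted *p* = 0.115) with the cortex level. *Lox*, lysyl oxidase, fell, with 83.2, 92.4, 204, 247 and 232 CPM in WT and 56.9, 8.28, 34.1, 3.67 and 36.3 CPM in PCC. WT replicates 4 and 5 were highest and PCC replicates 4 and 2 lowest, as in the cortex sum, and its log2 fold change went from -2.62 (SE 0.65, adjusted *p* = 0.00972) to -0.27 (adjusted *p* = 1.00) with the cortex level. *Adm*, adrenomedullin, was not called, at 1.40 (SE 0.52, adjusted *p* = 0.0622), while it was at 1.65 with the library totals, 1.85 with the listed totals, 1.32 in DESeq2, 1.40 adjusted over tested genes alone, 1.64 without WT replicate 2 and 1.13 without WT replicate 5.

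Markers of the other cell types of the gland also differed between the groups, and their part in the results was not tested. The summed level of the 10 listed Schwann and sustentacular markers of 14 was 192, 246, 192, 172 and 74.6 CPM in WT and 395, 459, 429.8, 344 and 364 CPM in PCC, with none at 0. *Ngfr*, the low-affinity neurotrophin receptor, held 17.7 to 45.8% of the sum in WT and 72.4 to 83.7% in PCC, and without it, a sum chosen after seeing the data, the means were 106 CPM in WT and 89.03 CPM in PCC, so the higher PCC sums rest on this gene. Every PCC sum was above every WT sum, with 6 higher and 3 lower of 10 tested (median log2 fold change 1.59), or 7 and 2 with the library totals and 7 and 1 with the listed totals. The members moved apart: *Ngfr* rose, at 2.16 (SE 0.43, adjusted *p* = 0.00313), as did *Sox10*, the glial lineage factor, at 1.83 (SE 0.51, adjusted *p* = 0.0178) with overlap, while *S100b*, the usual sustentacular marker, fell. *S100b* had 71.1, 62.2, 79.5, 77.9 and 31.9 CPM in WT and 7.24, 5.502, 8.18, 2.31 and 11.7 CPM in PCC. Its log2 fold change was -3.21 (SE 0.40, adjusted *p* = 0.0002897). Of this list, 1 call was kept beside the cortex level, *S100b* at -2.31 (adjusted *p* = 0.0204).

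Endothelial and pericyte markers, 15 of 25 listed and none at 0, had 5 higher and 7 lower of 15 tested (median log2 fold change -0.76), a majority that turned with the library totals (6 higher, 3 lower) and the listed totals (6 and 2) and ended without WT replicate 1 or 2 (6 and 6 each time). Their summed level was 1012, 1011, 719, 914 and 753 CPM in WT and 1585, 1131, 1846, 2681 and 1144 CPM in PCC. *Rgs5* held 2.16 to 3.38% of the sum in WT and 40.97 to 80.8% in PCC, and without it, also chosen after seeing the data, the mean sums were 859 CPM in WT and 599.9 CPM in PCC, so the higher PCC sums rest on this gene, while *Kdr* had the highest mean in WT. *Rgs5*, a pericyte regulator of G protein signalling, had 21.9, 25.1, 20.7, 30.9 and 18.8 CPM in WT and 1064, 595, 1092, 2167 and 469 CPM in PCC, and the groups were far apart at a log2 fold change of 5.52 (SE 0.45, adjusted *p* = 7.39e-05). *Tek*, the angiopoietin receptor, had 104, 100.1, 88.7, 104 and 98.996 CPM in WT and 18.8, 14.9, 40.6, 14.3 and 40.9 CPM in PCC. It fell, with -1.94 (SE 0.32, adjusted *p* = 0.00104), as did *Kdr*, the VEGF receptor 2, and *Emcn*, endomucin, both named after their values were seen, with -1.28 and -1.51, though *Kdr* had -0.76 (adjusted *p* = 0.054004) with the listed totals. *Vwf*, von Willebrand factor, also named after its values were seen, rose by 1.49 (SE 0.28, adjusted *p* = 0.00215). The endothelial and pericyte list kept 1 of the higher and 0 of the lower calls beside the cortex level. The call kept was that of *Rgs5*, at 4.66 (adjusted *p* = 0.00189). *Tek* had -1.18 (adjusted *p* = 0.0795) and *Emcn* -1.06 (adjusted *p* = 0.08096) with that covariate, and *Kdr* was not called with it either. Fibroblast markers, 6 of 10 listed and none at 0, were all called higher (median log2 fold change 2.03), with sums of 39.7, 67.9, 33.2, 45.4 and 48.8 CPM in WT and 94.1, 149.7, 244, 183 and 152 CPM in PCC. The PCC sums were all above the WT sums, and the highest mean was that of *Col3a1*, a fibrillar collagen named after its values were seen, in WT and of *Fbln1* in PCC. *Fbln1*, a matrix protein, had the largest rise of these markers, at 3.80 (SE 0.34, adjusted *p* = 9.39e-05).

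Few leukocyte markers are in the table, with 6 of 27 listed, 1 higher and 2 lower of 4 tested (median log2 fold change -0.19), and sums of 19.4, 21.4, 20.9, 22.98 and 23.7 CPM in WT and 61.2, 44.02, 41.7, 7.86 and 55.7 CPM in PCC. PCC replicate 4 lay below all WT samples and the other PCC samples above them, and PCC replicates 1 and 4 each had 1 listed marker at 0. The direction of the list depended on the scale, with 2 higher and 1 lower with the library totals, 2 higher and none lower with the listed totals, and 2 of each in DESeq2, and the higher count was 0 without WT replicate 1, 2, 3 or 4 or PCC replicate 1, 2 or 3, and 3 without PCC replicate 4. There were 2 of each also with no filter and adjusted over the tested genes alone, and none of either with a replicate block. The highest mean in both groups was that of *Cd163*, a macrophage scavenger receptor named after its values were seen, with 9.13, 10.4, 14.5, 16.2 and 20.5 CPM in WT and 41.98, 38.8, 35.6, 5.93 and 52.3 CPM in PCC. It held 46.997 to 86.3% of the sum in WT and 68.6 to 93.8% in PCC, and without it, also chosen after seeing the data, the mean sums were 7.56 CPM in WT and 7.195 CPM in PCC. Its log2 fold change of 1.31 (SE 0.45, adjusted *p* = 0.0466), with overlap, was called at 1.60 with the library totals, 1.81 with the listed totals and 2.82 (adjusted *p* = 0.00861) with the cortex level, and not at 1.24 with the authors' size factors, 1.31 with a filter of 10 counts in each sample, 1.16 with a replicate block, 1.18 without WT replicate 1, 1.21 without WT replicate 2, 1.31 without WT replicate 3, 1.36 without WT replicate 4, 1.23 without PCC replicate 1, 1.27 without PCC replicate 2, 1.30 without PCC replicate 3 and 1.11 without PCC replicate 5. Mast cell markers, 2 of 8 listed and none tested, had sums of at most 0.769 CPM, with both markers at 0 in WT replicates 1, 3, 4 and 5, and *Tpsab1* had the higher mean in both groups. Of 9 adipocyte markers 1 is listed, *Cidea*, named after its values were seen, with 44.2, 45.5, 64.9, 56.9 and 16.6 CPM in WT and 18.9, 3.97, 17.001, 0.706 and 7.39 CPM in PCC, not at 0 in any sample. Its groups overlapped, and its log2 fold change of -2.25 (SE 0.68, adjusted *p* = 0.024998) was not called at -1.82 with the listed totals, -2.08 without WT replicate 3, -2.15 without WT replicate 4, -2.05 without PCC replicate 2 and -2.16 without PCC replicate 5. Nor was it called with the cortex level as a covariate, at -0.49. None of the 10 erythroid markers is listed.

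In the extracellular matrix, collagens had 13 higher and 4 lower of 19 tested (median log2 fold change 1.55) and matricellular proteins and proteoglycans 13 higher and 8 lower of 26 tested (median log2 fold change 0.97). *Tnc*, tenascin C, had 0.152, 0.105, 0.158, 0.952 and 0.261 CPM in WT and 142, 37.97, 105, 225 and 44.99 CPM in PCC. The groups were far apart, at a log2 fold change of 8.45 (SE 0.76, adjusted *p* = 9.46e-05). *Spp1*, osteopontin, was its opposite, with 495, 536, 729, 823 and 472 CPM in WT and 21.04, 9.96, 39.1, 53.1 and 142 CPM in PCC. The groups did not overlap, at -3.53 (SE 0.62, adjusted *p* = 0.00149). *Col22a1* rose by 7.57 (SE 0.75, adjusted *p* = 0.000101) and *Col6a6* fell, with -2.33 (SE 0.53, adjusted *p* = 0.00593). Laminins and integrins had 3 higher and 6 lower of 13 tested (median log2 fold change -0.95), with 4 and 4 under the library totals and 4 and 3 under the listed totals, and *Nid1*, a basement membrane linker, fell with -2.34 (SE 0.48, adjusted *p* = 0.00355). Matrix proteases and inhibitors had 8 higher and 11 lower of 26 tested (median log2 fold change -1.01), with 9 and 8 under the library totals and 9 and 6 under the listed totals, and 3 of the higher and 3 of the lower calls were kept beside the cortex level. Its largest rise was that of *Serpine2*, a protease inhibitor, at 4.81 (SE 0.54, adjusted *p* = 0.000157). Beside the cortex level, 3 of the higher and 0 of the lower calls were kept among collagens, 8 of the higher and 0 of the lower calls among matricellular genes and 0 of the higher and 0 of the lower calls among laminins and integrins.

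Keratin, desmosome, tight junction and mucin genes had 13 higher and 7 lower of 22 tested (median log2 fold change 1.18), or 14 and 5 with the library totals and 14 and 4 with the listed totals. Muscle-type genes had 6 higher and 7 lower of 17 tested (median log2 fold change -0.33), turning to 8 higher and 5 lower with the library totals and to 8 and 4, with a median of 0.15, with the listed totals. The majority also turned with a replicate block (7 and 6) and without WT replicate 1 or 2 or PCC replicate 1, 3 or 5, and ended adjusted over the tested genes alone and without PCC replicate 2 or 4. *Myh3*, the embryonic myosin heavy chain, had 17.9, 20.4, 4.93, 83.7 and 3.61 CPM in PCC and, of the WT samples, reads in replicate 4 alone, at 0.381 CPM. *Dsg2*, desmoglein 2, had 3 or fewer counts in each WT sample and a pooled ratio of 594, with a 95% exact counting interval of 106 to 23510.3. *Muc4*, a membrane mucin, had 160.4, 150.4, 29.96, 38.03 and 1.11 CPM in WT and 0, 0.595, 0.497, 0.0941 and 0.297 CPM in PCC. WT replicate 5 lay just above the PCC samples and far below the other WT samples, and the log2 fold change was -7.98 (SE 1.25, adjusted *p* = 0.000845). *Csrp2*, a LIM protein of smooth muscle, fell, with -2.87 (SE 0.45, adjusted *p* = 0.000804). Of the first group 4 of the higher and 3 of the lower calls were kept beside the cortex level, and of the second 2 of the higher and 2 of the lower calls.

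Immune genes were mostly lower in PCC: MHC and antigen presentation had 0 higher and 10 lower of 15 tested (median log2 fold change -1.09), interferon-stimulated genes 5 higher and 18 lower of 30 tested (median log2 fold change -1.06), and complement, chemokines and interleukins 8 higher and 18 lower of 31 tested (median log2 fold change -1.40). With the listed totals these were 1 higher and 6 lower, 6 higher and 8 lower, and 8 higher and 8 lower, so the last majority ended under that scale, and 1 MHC gene was also called higher with the library totals, adjusted over the tested genes alone and without PCC replicate 1. *Psmb8*, an immunoproteasome subunit, had 96.4, 90.9, 89.3, 91.5 and 85.96 CPM in WT and 12.7, 18.04, 25.1, 12.4 and 28.9 CPM in PCC. The WT samples were close together and all above PCC, with a log2 fold change of -2.22 (SE 0.24, adjusted *p* = 0.000143). *RT1-A2*, a class I molecule, and *Psmb9*, both named after their values were seen, had log2 fold changes of -1.44 (SE 0.15, adjusted *p* = 0.000115) and -1.55 (SE 0.26, adjusted *p* = 0.00116). *B2m*, the light chain of class I, was not called, at -0.74 (SE 0.30, adjusted *p* = 0.0926), while it was at -0.85 in DESeq2, -0.74 adjusted over tested genes alone and -1.06 without PCC replicate 1. *Oasl*, an interferon-induced protein, had 122, 164, 63.3, 62.98 and 88.4 CPM in WT and 8.84, 8.77, 13.02, 3.53 and 11.7 CPM in PCC, a log2 fold change of -3.45 (SE 0.39, adjusted *p* = 0.0001702). *Isg15*, a ubiquitin-like protein, also fell without overlap, with a log2 fold change of -1.73. *Il22ra2*, a decoy receptor of IL-22, rose by 2.50 (SE 0.38, adjusted *p* = 0.000759), and the count of higher genes in its list went from 8 to 4 without WT replicate 4 or PCC replicate 3 and to 5 without WT replicate 3 or 5. Beside the cortex level, 0 of the higher and 3 of the lower calls were kept for MHC, 0 of the higher and 6 of the lower calls for interferon-stimulated genes and 3 of the higher and 1 of the lower calls for complement and cytokines.

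Genes of mitosis were mostly higher in PCC, with 65 higher and 1 lower of 69 tested (median log2 fold change 2.93), and 36 of the higher and 0 of the lower calls kept beside the cortex level. *Aurkb*, the kinase of the chromosomal passenger complex, had 4.41, 3.87, 3.06, 3.36 and 5.02 CPM in WT and 36.7, 116, 39.7, 67.04 and 39.2 CPM in PCC. The groups were apart, and the log2 fold change was 3.92 (SE 0.36, adjusted *p* = 9.46e-05). *Top2a*, topoisomerase II alpha, *Kif2c*, a kinesin of the centromere, and *Mki67*, the proliferation marker named after its values were seen, rose by 3.86, 4.57 and 2.83. *Cenpv*, a centromere protein, was the lower call of the list, at -1.26 (SE 0.21, adjusted *p* = 0.00118), with 2 lower without WT replicate 1. DNA replication and repair had 50 higher and 9 lower of 63 tested (median log2 fold change 1.03), or 53 higher and 2 lower with the listed totals, and 11 of the higher and 2 of the lower calls kept beside the cortex level. *Bard1*, the partner of BRCA1, rose by 3.89 (SE 0.57, adjusted *p* = 0.000608) and *Mcm2*, a subunit of the replicative helicase, by 0.81 (SE 0.21, adjusted *p* = 0.0111) with overlap. *Pcna*, the sliding clamp, went down, with 128, 133, 108, 135 and 67.6 CPM in WT and 56.4, 58.3, 49.6, 68.2 and 58.5 CPM in PCC. Its groups overlapped through WT replicate 5, and the log2 fold change was -0.97 (SE 0.19, adjusted *p* = 0.002999), or -0.49 (adjusted *p* = 0.168) with the listed totals. Histone genes had 3 higher and 8 lower of 13 tested (median log2 fold change -1.44), with 5 lower without WT replicate 3 or 4 or PCC replicate 2, 3 or 4 and with either totals as the scale. *Hist1h4b* fell with -2.94 (SE 0.44, adjusted *p* = 0.000631).

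Zinc finger protein genes, a large family of mostly DNA-binding regulators, had 103 higher and 15 lower of 131 tested (median log2 fold change 0.95), or 107 and 9 with the library totals and 107 and 5 with the listed totals, and 17 of the higher and 2 of the lower calls were kept beside the cortex level. *Zfp385b* had the largest fall of the family, with 388, 383, 257, 257 and 207 CPM in WT and 44.4, 8.23, 26.3, 2.78 and 46.6 CPM in PCC. The groups did not overlap. Chromatin modifiers had 26 higher and 18 lower of 52 tested (median log2 fold change 0.52), near the shares of all genes tested. They had 28 and 8 with the library totals, 28 and 6 with the listed totals, and 24 and 24 in DESeq2. With TMM, 1 of the higher and 3 of the lower calls were kept beside the cortex level. *Ezh2*, the methyltransferase of Polycomb complex 2, had 179, 284, 117, 163 and 41.6 CPM in WT and 19.8, 23.5, 23.8, 32.5 and 21.7 CPM in PCC. WT replicate 5 was lowest of WT and above every PCC sample, and the log2 fold changes without and with the cortex level were -2.69 (SE 0.41, adjusted *p* = 0.0007001) and -3.36 (adjusted *p* = 0.00921). *Tet1*, a 5-methylcytosine oxidase, rose by 1.63 (SE 0.31, adjusted *p* = 0.00215), and *Prmt8*, a brain arginine methyltransferase, by 3.16 (SE 0.41, adjusted *p* = 0.000328). Imprinted genes had 12 higher and 5 lower of 20 tested (median log2 fold change 1.22), with *Nnat*, neuronatin, at 3.10 (SE 0.44, adjusted *p* = 0.000501) and *Plagl1*, a growth-suppressing zinc finger factor, at -3.55 (SE 0.61, adjusted *p* = 0.00135) as the largest rise and fall. *Dlk1*, a Notch-like protein, had 1149.98 ± 541 CPM in WT and 2436 ± 1098 CPM in PCC (SD, n = 5 each) and was not called, at 1.08 (SE 0.42, adjusted *p* = 0.0725), while it was at 1.35 with the library totals, 1.55 with the listed totals, 0.99 in DESeq2 and 1.08 adjusted over tested genes alone.

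By class of transcript, small nucleolar RNA genes had 2 higher and 28 lower of 42 tested (median log2 fold change -1.18), and long intergenic RNA genes 42 higher and 49 lower of 106 tested (median -1.25). By chromosome, the lowest autosomal medians were those of chromosomes 20, with 76 higher and 107 lower of 210 tested (-0.70), and 19, with 69 higher and 103 lower of 215 tested (-0.63). The highest was that of chromosome 18, with 109 higher and 65 lower of 193 tested (0.79). Of the 8 listed genes of the mitochondrial genome none was called higher and 2 lower, *Mt-nd4*, a complex I subunit named after its values were seen, among them, at -1.29 (SE 0.34, adjusted *p* = 0.0134) and -0.78 (adjusted *p* = 0.0876) with the listed totals. *Mt-co1*, named likewise, had 64295, 56548, 48022, 61218 and 105515 CPM in WT and 56572, 21773, 29858, 18673 and 42199.5 CPM in PCC, with overlap between the groups. Its log2 fold change of -0.99 (SE 0.50, adjusted *p* = 0.192) was not called, while it was at -1.10 in DESeq2.

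Genes of protein turnover leaned lower, with proteasome subunits at 0 higher and 13 lower of 19 tested (median log2 fold change -0.62), chaperones and ER stress genes at 11 higher and 22 lower of 40 tested (median log2 fold change -0.78) and cytosolic ribosomal proteins at 1 higher and 7 lower of 13 tested (median log2 fold change -0.61). These lists depended on the scale: with the listed totals they had 0 higher and 5 lower, 14 higher and 10 lower, and 1 higher and 0 lower, and with the library totals chaperones had 14 and 14 and ribosomal proteins 1 and 0. The higher ribosomal call was lost without WT replicate 4 or PCC replicate 4. *Psma1*, a core proteasome subunit, had 134, 146, 148, 169.6 and 186 CPM in WT and 100.04, 79.4, 73.1, 82.7 and 89.7 CPM in PCC, with every PCC sample below every WT sample at a log2 fold change of -0.88 (SE 0.15, adjusted *p* = 0.00113). *Creb3l1*, a transcription factor held in the endoplasmic reticulum, had 173, 290.1, 382, 688 and 256 CPM in WT and 13.3, 7.29, 9.18, 9.88 and 38.3 CPM in PCC. The groups were far apart, at -4.52 (SE 0.57, adjusted *p* = 0.000285). *Hspa1b*, an inducible HSP70, fell with -2.30 (SE 0.55, adjusted *p* = 0.00805), or -4.08 (adjusted *p* = 0.00452) with the cortex level, and *Dnajc6*, auxilin, rose with 2.26 (SE 0.38, adjusted *p* = 0.00115). Splicing factors had 24 higher and 19 lower of 59 tested (median log2 fold change -0.39), with more lower than higher calls under the authors' size factors (23 higher, 26 lower) and in DESeq2 (21 and 34), but 25 and 5 with the library totals and 25 and 2 with the listed totals, where the median was 0.11. Lysosome and V-ATPase genes had 13 higher and 15 lower of 29 tested (median log2 fold change -0.52), with 13 and 10 under the library totals and 13 and 6 under the listed totals. *Celf3*, a neuronal RNA-binding protein named after its values were seen, rose by 3.04 (SE 0.33, adjusted *p* = 0.0001404), *Rbm47* fell with -3.36 (SE 0.70, adjusted *p* = 0.00373), and *Cd63*, a lysosomal tetraspanin, with -1.81 (SE 0.27, adjusted *p* = 0.000638). Beside the cortex level, 0 of the higher and 2 of the lower calls were kept for the proteasome, 2 of the higher and 8 of the lower calls for chaperones, 0 of the higher and 0 of the lower calls for ribosomal proteins, 3 of the higher and 3 of the lower calls for splicing factors and 1 of the higher and 1 of the lower calls for the lysosome.

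Genes of cholesterol synthesis and uptake, which supply steroid-making cells among others, had 0 higher and 13 lower of 15 tested (median log2 fold change -1.48), or 0 higher and 8 lower with the listed totals. *Insig1*, a sterol-regulated inhibitor of the pathway named after its values were seen, had 475, 489.5, 632, 461 and 369 CPM in WT and 93.03, 63.3, 57.2, 47.3 and 98.4 CPM in PCC. All PCC samples were below all WT samples, with a log2 fold change of -2.76 (SE 0.25, adjusted *p* = 9.46e-05). With the cortex level in the fit 5 of the 13 calls were kept, and 2 genes had a positive cortex term. *Apoe*, a lipid carrier named after its values were seen, fell, at -1.84 (SE 0.27, adjusted *p* = 0.000591), with a cortex slope of 0.00 (adjusted *p* = 1.00).

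Detoxification and redox enzymes had 10 higher and 54 lower of 70 tested (median log2 fold change -1.55), or 11 higher and 33 lower with the listed totals and 6 higher without WT replicate 4. Of the list, 20 genes had a positive cortex term, among 289 such genes in all, and 2 of the higher and 9 of the lower calls were kept beside the cortex level. *Fmo1*, a flavin monooxygenase, fell with -3.54 (SE 0.61, adjusted *p* = 0.00141), *Cat*, catalase, with -1.04 (SE 0.23, adjusted *p* = 0.00466), and -0.56 (adjusted *p* = 0.06497) for *Cat* with the listed totals. *Gstm6*, a glutathione transferase, rose, with 0.963, 2.77, 1.53, 1.71 and 0.196 CPM in WT and 30.7, 59.8, 18.6, 16.9 and 13.9 CPM in PCC, and its groups were apart. Solute carriers had 70 higher and 50 lower of 141 tested (median log2 fold change 0.49), near the shares of all genes tested. They had 76 higher and 24 lower under the listed totals and 71 and 65 in DESeq2, and 16 of the higher and 9 of the lower calls were kept beside the cortex level. *Slc25a30*, a mitochondrial carrier, had 1109, 1191, 1512, 1499.9 and 666 CPM in WT and 23.7, 22.7, 37.8, 16.3 and 90.4 CPM in PCC. The groups were far apart, at -4.97 (SE 0.52, adjusted *p* = 0.000124) without and -4.01 (adjusted *p* = 0.00489) with the cortex level. Glycosyltransferases and glycan sulfotransferases had 23 higher and 17 lower of 44 tested (median log2 fold change 0.90), near the shares of all genes tested. They had 23 higher and 6 lower with the listed totals. *Hs3st2*, a heparan sulfate sulfotransferase, was at 6.71 (SE 0.83, adjusted *p* = 0.0002796) and *St8sia5*, a sialyltransferase, at -2.88 (SE 0.65, adjusted *p* = 0.006097). Of this family, 10 of the higher and 2 of the lower calls were kept beside the cortex level.

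**Figure D3:**
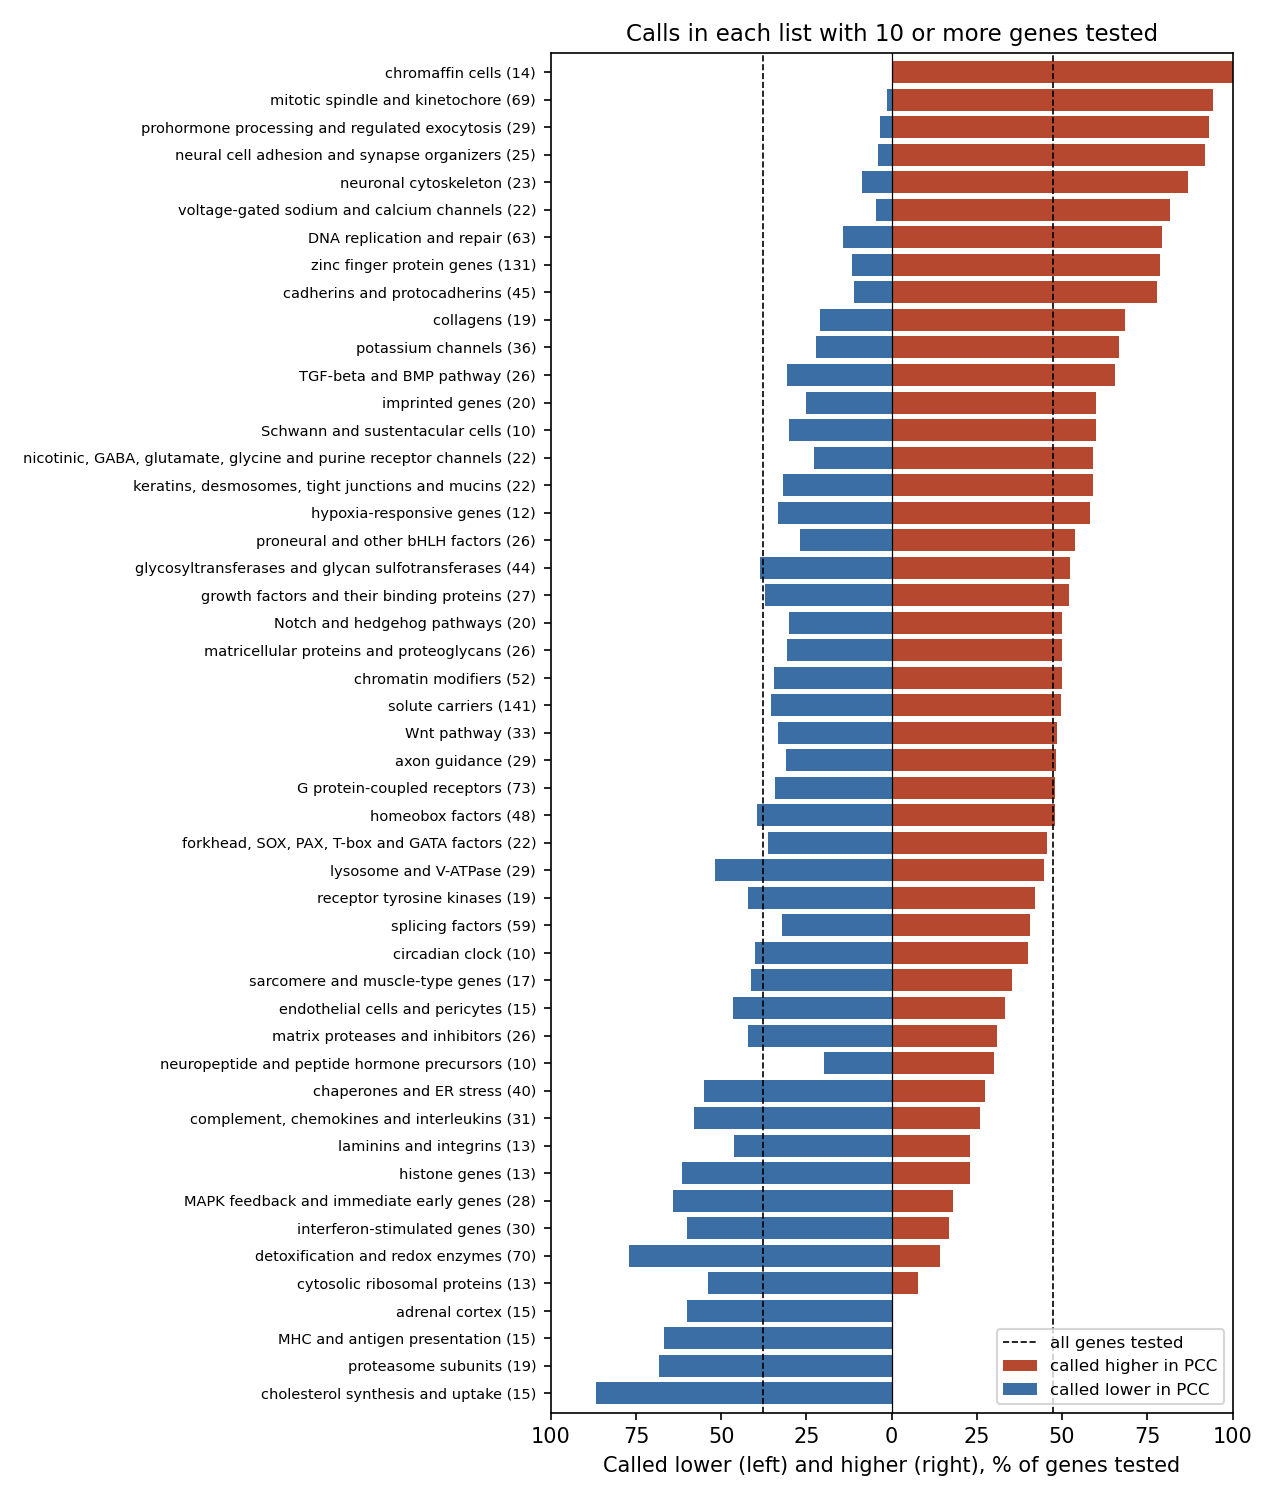
Genes called lower (left, blue) and higher (right, red) in PCC as a percentage of the genes tested, for each list with 10 or more genes tested, whose number stands in parentheses. The dashed lines mark all genes tested, 37.8% lower and 47.2% higher; the lists of chromaffin cells, mitosis and exocytosis lie at the top and those of cholesterol synthesis, the proteasome, MHC and the adrenal cortex at the bottom. With other scales of the samples some of the lists change the direction of their majority.

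Majorities of lists also turned or ended outside the scaling. With a filter of 10 counts in each sample, lower calls prevailed for homeobox factors (13 and 17) and glycosyltransferases (14 and 16), and higher and lower calls were equal for neuropeptides, G protein-coupled receptors, the Wnt pathway, hypoxia-responsive genes and the keratin list. Splicing factors had 25 and 30 adjusted over the tested genes alone and 20 and 22 without PCC replicate 1, and neuropeptides had 3 and 3 with a replicate block. Calls were also equal for matrix proteases without WT replicate 2 and for forkhead, SOX, PAX, T-box and GATA factors without WT replicate 3 or 4.

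Outside the lists, the rule for named genes adds large changes in both directions. *Sphkap*, an anchoring protein of protein kinase A, had 3 or fewer counts in each WT sample and 20.8, 6.84, 30.02, 31.8 and 2.85 CPM in PCC, a pooled ratio of 1632 with a 95% exact counting interval of 293 to 64502. *Tph1*, the tryptophan hydroxylase of serotonin synthesis outside the brain, had a pooled ratio of 356 (interval 152 to 1098), but 92.1 (39.2 to 285) without PCC replicate 4, which had 81.6 CPM and 79.2% of the PCC counts. *Gulo*, the last enzyme of vitamin C synthesis, had 11.9, 7.39, 16.3, 29.3 and 7.14 CPM in PCC and a pooled ratio of 254 (interval 109 to 785). In each of these 3 genes all PCC samples lay above all WT samples. *Cwc25*, a spliceosome-associated protein, fell, with 1526, 1996, 839, 863 and 126 CPM in WT and 30.4, 27.6, 23.4, 31.005 and 52.98 CPM in PCC. *Vil1*, the actin-bundling villin, and *LOC100364191* fell with log2 fold changes of -6.01 and -5.29. The other falls named by the rule are those of *AABR07007690.2*, *AC097153.2* and *AABR07044837.2*, at -6.92, -6.50 and -5.07.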

How the data were processed

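RNA was sequenced from macrodissected adrenal medulla. By the submitters' processing notes, reads were mapped with HISAT2 2.0.5 and counted with featureCounts 1.5.0-p3. The deposited table holds raw read counts per gene, the signal that the authors made by scaling the counts with DESeq2 size factors, FPKM as deposited by the authors, and each p-value and adjusted p-value that the authors computed with DESeq2. The authors' log2 fold changes were not used, and their p-values served only to recover how many genes they had tested, 18790. Library totals were recovered from counts, FPKM and gene lengths, over genes with at least 20 counts. HYP samples were not used here.

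Counts were fitted with edgeR 4.0.16 (limma 3.58.1, R 4.3.3): TMM over the listed genes, filterByExpr, glmQLFit and glmQLFTest, with Benjamini-Hochberg adjustment over 18790 genes and calls under 0.05. The standard error was taken as the log2 fold change over the root of F. CPM are counts over the TMM effective library on the scale of the recovered totals, with a pseudocount of 0.5 for logarithms. Where each sample of 1 group had 3 or fewer counts and not all had 0, pooled ratios with exact 95% binomial intervals are given, which cover counting error only. The planned permutation test of the summed cortex level is not given, as the authors had called its genes on these samples. Python 3.11.15 with numpy 2.4.6, pandas 2.3.3, scipy 1.17.1 and matplotlib 3.10.9 was used otherwise. The fit was tested on simulated data.

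The alternatives were DESeq2 1.42.0, the authors' size factors, recovered library totals, listed totals, TMM without the cortex list, a fit with no filter, a filter of 10 or more counts in each sample, adjustment over the tested genes alone, the cortex level as a covariate, a replicate block and leaving out each sample. TMM over the genes that passed the filter and cell type sums without their most abundant gene were added after seeing the data.

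The members and the 55 lists were chosen with earlier results of these data known. The named genes are *Cdkn1b*, among called genes with a symbol, a mean of 1 CPM or more and groups that do not overlap, the 10 that rose and the 10 that fell most, the lead genes of each list, and in each list the largest rise and fall under the same conditions. *Cyp1b1*, *Akr1b8*, *Fdx1*, *Scarb1*, *Crem*, *Nr4a1*, *Nr4a2*, *Jun*, *Hspd1*, *Apoe*, *Chrna7*, *Hmx3*, *Dlx1*, *Dlx2*, *Gdnf*, *Mki67*, *Psmb9*, *Kdr*, *Emcn*, *Gria3*, *Celf3*, *Hhex*, *Insig1*, *Mt-nd4*, *Mt-co1*, *Srrm2*, *Nr0b1*, *Soat1*, *Inha*, *Kcnk9*, *Calca*, *Cidea*, *Cd163*, *RT1-A2*, *LOC100911154*, *Vwf* and *Col3a1* were named after their values were seen. The single-gene results of some other named genes are not reported here.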

Additional observations from a re-analysis of the deposited data

Results flagged for a closer look

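In 41 of the 458 groups of 5 samples examined, for the genes named and the summed markers, 1 sample lay far from the other 4 of its group (its gap to the nearest was more than 0.71 of the group's range). For 5 normally distributed values chance gives about 1 in 20 groups. CPM were not checked for this, and genes of the same samples are not independent, so the number of groups is a description. The share of 1 in 20 does not hold for groups with 0 in 4 samples, where any read in the fifth sets it apart, as for *Sphkap*, *Dsg2*, *Myh3*, *Cntnap5b*, *Gpr139*, *Tpsab1* and the summed mast cell markers in WT. The sums repeat values of their own genes, as for *Cidea* and the adipocyte markers. The values below are those of that sample against the range of the other 4, and no cause was tested.

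WT replicate 5 lay below its group for *Gprc5b* with 10.8 CPM against 212 to 653, *S100b* with 31.9 CPM against 62.2 to 79.5, *Syt1* with 12.5 CPM against 60.1 to 97.1, *Snap25* with 18.2 CPM against 88.7 to 151, *Kcnq5* with 0.717 CPM against 1.77 to 1.88, *Hoxb9* with 76.9 CPM against 141 to 161, *Rbm24* with 0 CPM against 0.253 to 0.366, *Cidea* with 16.6 CPM against 44.2 to 64.9 and the summed adipocytes markers with 16.6 CPM against 44.2 to 64.9. WT replicate 5 lay above its group for *Gal* with 7.36 CPM against 1.32 to 2.16, *Cacna1h* with 537 CPM against 212 to 245 and *Itga6* with 73.4 CPM against 28.6 to 33.5. WT replicate 4 lay above its group for *Sphkap* with 0.0635 CPM against 0 in each, *Tnc* with 0.952 CPM against 0.105 to 0.261, *Myh3* with 0.381 CPM against 0 in each, *Adora2a* with 21.6 CPM against 3.06 to 5.02, *Gpr139* with 1.02 CPM against 0 in each, *En1* with 0.571 CPM against 0 to 0.105, *Ros1* with 4.63 CPM against 1.52 to 1.85 and *Egln3* with 1.78 CPM against 0.782 to 0.889. WT replicate 4 lay below its group for *Cdh2* with 59.1 CPM against 73.7 to 78.5. WT replicate 3 lay above its group for *Dsg2* with 0.0527 CPM against 0 in each and *Sv2b* with 0.686 CPM against 0 to 0.127. WT replicate 3 lay below its group for *Srrm2* (named after its values were seen) with 3752 CPM against 4684 to 4829.

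WT replicate 2 lay above its group for *Tpsab1* with 0.105 CPM against 0 in each and the summed mast cells markers with 0.105 CPM against 0 in each. WT replicate 1 lay above its group for *Cntnap5b* with 0.101 CPM against 0 in each. PCC replicate 1 lay below its group for *Gprc5b* with 1.88 CPM against 4.86 to 6.42, *Tpsab1* with 0 CPM against 0.382 to 0.565, *Rpl7a* with 2.59 CPM against 9.86 to 14.2 and *Chrna7* with 74.2 CPM against 118 to 139.7. PCC replicate 2 lay above its group for *Zfp286a* with 7.29 CPM against 0.983 to 1.79. PCC replicate 4 lay above its group for *Adm* with 432 CPM against 149.9 to 199.96 and *Hspa1b* with 17.6 CPM against 2.08 to 3.798. PCC replicate 4 lay below its group for *Cd163* with 5.93 CPM against 35.6 to 52.3 and the summed macrophages and other leukocytes markers with 7.86 CPM against 41.7 to 61.2. PCC replicate 5 lay above its group for *Vil1* with 1.61 CPM against 0 to 0.235, *LOC100364191* with 7.01 CPM against 1.49 to 2.099, *Ros1* with 0.382 CPM against 0 to 0.0893 and *Nr4a2* with 64.1 CPM against 7.14 to 11.3. PCC replicate 5 lay below its group for *Spred2* with 14.6 CPM against 26.9 to 28.8.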

How the results depend on the processing

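The number of genes higher in PCC stayed within 1.5 times 3303 under the alternatives run other than the cortex covariate (2635 to 3665), and that of genes lower within 1.5 times 2644 under those other than 3 (2269 to 3440, leaving out samples aside). With the cortex level as a covariate there were 697 higher and 458 lower genes, with the recovered library totals 1592 lower and with the listed totals 1100 lower. The covariate shares variance with the group, and the totals move the median of all genes, as given above; beyond that the cause was not tested. The numbers with 1 sample left out were 2808 to 3248 higher and 2228 to 2652 lower, the lists with more higher than lower calls 31 to 34 (32 with all samples), and the difference of the summed cortex level -45612 to -35916 CPM (-41105 with all samples). Under the other alternatives the lists with more higher than lower calls ranged from 25 with the filter of 10 counts in each sample to 42 with the listed totals. Without its most abundant gene, chosen after seeing the data, the PCC minus WT difference of the summed markers turned to -17.4 CPM for Schwann, -259 for endothelial and -0.368 for leukocyte markers and kept its sign for the others with 2 or more genes.

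With the replicate number as a replicate block there were 2761 higher and 2269 lower genes. The labels do not say that the numbers pair the samples, and 2 of 5 PCC samples were most like the WT sample of their own number. TMM over the genes that passed the filter, chosen after seeing the data because earlier counts for these data differed from those of the planned fit, gave 3268 higher and 2694 lower genes; the planned order of steps was kept.

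Of the 217 named genes tested, 101 lost their call with the covariate and kept their sign, and 7 others turned sign. Both counts include lead cortex genes, which are part of the covariate, so that their change under it follows from its make-up. Those with turned signs were *Hsd3b1* 0.42, *Cyp21a1* 0.07, *Cyp11a1* 0.58 and *Cyp11b2* 1.27. Outside the lead genes, *Il23r* 0.42, *Scarb1* 0.54 and *Soat1* 0.63 turned sign too, with the cause not tested. Of the genes that turned sign, *Hsd3b1*, *Cyp21a1* and *Il23r* also lost their call, and the others had not been called. *H2afx*, not called with TMM, had 0.01 with the listed totals, where 21 named genes lost their call. Of the 104 numbers of higher or lower calls per list, 41 left the range of 1.5 times their value with the listed totals, 22 with the library totals, 23 with a filter of 10 counts in each sample, 15 with a replicate block, 12 in DESeq2 and 95 with the covariate. The table holds only genes the authors had called, and genes outside it were not analysed here. Genes with few counts in a group limit what this depth can show.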
